A study of Mus musculus with 36 samples.

Results

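The genes described here encode proteins that the liver secretes into blood: carriers, clotting factors, serine protease inhibitors, acute phase proteins and complement components. They were chosen by name, and 43 rows of the 54347 genes in the deposited table carried the Ensembl IDs of these symbols. By role they comprised 8 carriers and other abundant plasma proteins, 13 genes of coagulation and fibrinolysis, 4 protease inhibitors, 7 acute phase and inter-alpha-inhibitor genes and 11 complement genes. All 43 were above the minimum of expression (more than 1 CPM, counts per 1e6 counts, in at least 6 libraries) set for the 15340 genes tested, and C5 is listed in the annotation under the symbol *Hc*.

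The study asked whether the ketone body β-hydroxybutyrate (βOHB) regulates genes directly, with butyrate, an inhibitor of histone deacetylases, for comparison. Hepatocytes were isolated by collagenase perfusion from livers of male C57BL/6NHsd mice (the labels give the strain as C57Bl/6), plated with dexamethasone, rested overnight without it and then given PBS, 5 mM βOHB (the sodium salt of the R enantiomer) or 5 mM sodium butyrate for 6 h. βOHB is butyrate that carries a hydroxyl group on the third carbon. Adipocytes differentiated from inguinal fat, bone marrow-derived macrophages and myocytes (differentiated skeletal myotubes), all primary mouse cells of unmodified genotype as far as the labels say, received the same treatments. Each of the 12 groups held 3 libraries, 36 in all. No source says whether libraries of a group came from separate animals or cultures, so p-values measure only the spread between these libraries, which may be technical.

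Hepatocytes make most circulating plasma proteins and secrete them constitutively. Thrombin (from *F2*) cleaves fibrinogen, a dimer of the chains encoded by *Fga*, *Fgb* and *Fgg*, into fibrin, and plasmin (from *Plg*) dissolves the clot unless α2-antiplasmin (from *Serpinf2*) blocks it. Complement proteases such as MASP1 start a cascade that converges on C3 and ends in the membrane attack complex of C5b, C6, C7, C8 and C9. During inflammation, interleukin-6 and interleukin-1 raise the acute phase members of these genes in hepatocytes through STAT3, NF-κB and C/EBP factors, whereas HNF1 and HNF4 maintain many of them at rest.

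Promoter sequences are shown for 6 members on which the results below turn: *Serpinf2* and *F11*, which fell under butyrate, *Alb*, the most abundant member, and the 3 fibrinogen genes, whose levels diverged. Each is the 250 bases before the RefSeq start of the gene (GRCm38.p6), 5′ to 3′ on the coding strand. Capitals mark matches to the HNF1 core GTTAAT and to the C/EBP core TTGCNNAA, either of them on either strand.

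*Serpinf2* (chr11:75439502-75439751, minus strand): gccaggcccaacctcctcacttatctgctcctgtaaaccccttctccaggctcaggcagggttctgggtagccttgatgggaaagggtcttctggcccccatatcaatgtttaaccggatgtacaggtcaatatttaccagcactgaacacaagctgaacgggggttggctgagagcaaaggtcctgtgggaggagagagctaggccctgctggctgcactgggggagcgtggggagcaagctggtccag
*F11* (chr8:45262032-45262281, minus strand): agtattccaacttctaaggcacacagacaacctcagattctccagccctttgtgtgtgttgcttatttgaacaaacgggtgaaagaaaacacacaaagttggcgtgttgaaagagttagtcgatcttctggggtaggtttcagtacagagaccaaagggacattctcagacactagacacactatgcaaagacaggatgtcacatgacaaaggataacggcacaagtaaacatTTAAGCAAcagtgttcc
*Alb* (chr5:90460620-90460869, plus strand): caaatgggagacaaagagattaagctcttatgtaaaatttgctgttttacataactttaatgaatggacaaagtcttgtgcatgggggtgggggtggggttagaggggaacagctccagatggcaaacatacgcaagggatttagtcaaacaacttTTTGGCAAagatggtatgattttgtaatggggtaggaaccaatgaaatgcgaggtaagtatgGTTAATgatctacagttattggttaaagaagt
*Fga* (chr3:83025903-83026152, plus strand): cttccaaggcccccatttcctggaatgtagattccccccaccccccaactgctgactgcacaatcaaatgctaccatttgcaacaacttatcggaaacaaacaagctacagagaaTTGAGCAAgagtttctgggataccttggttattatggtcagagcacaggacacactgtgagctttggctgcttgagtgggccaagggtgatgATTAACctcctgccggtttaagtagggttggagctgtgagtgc
*Fgb* (chr3:83049864-83050113, minus strand): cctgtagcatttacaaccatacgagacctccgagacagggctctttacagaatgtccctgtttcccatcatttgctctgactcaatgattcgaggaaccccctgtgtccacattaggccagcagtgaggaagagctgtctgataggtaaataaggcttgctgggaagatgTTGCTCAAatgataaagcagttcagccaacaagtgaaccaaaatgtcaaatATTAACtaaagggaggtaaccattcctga
*Fgg* (chr3:83007474-83007723, plus strand): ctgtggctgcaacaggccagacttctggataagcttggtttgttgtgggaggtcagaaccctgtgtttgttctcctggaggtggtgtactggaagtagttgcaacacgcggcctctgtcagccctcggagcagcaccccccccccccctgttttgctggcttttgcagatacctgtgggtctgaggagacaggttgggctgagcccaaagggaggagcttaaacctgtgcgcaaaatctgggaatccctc

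The promoter table held 33 of the 43 members. The HNF1 core lay in 10 of these 33 windows (30.3%) against 6.04% of all 20440 promoters of the table, and the C/EBP core in 12 (36.4%) against 9.19%. In *Alb* the HNF1 core spans bases 32 to 27 before the start and the C/EBP core bases 94 to 87. *Fga* and *Fgb* hold both cores (HNF1 at 43 to 38 and at 29 to 24, C/EBP at 135 to 128 and at 80 to 73), while neither was found in the *Fgg* and *Serpinf2* windows. *F11* holds only the C/EBP core, at 17 to 10. On both strands, TATAAA was found in 2 of the 33 windows (6.1%, all promoters 12.22%), CCAAT in 9 (27.3%, 35.19%), the STAT3 palindrome TTCCNGGAA in 1 (3.0%, 0.91%), and the NF-κB site (0.34% of all promoters) and the HNF4 motif CAAAGTCCA (0.38%) in none. These are matches of letters in a fixed window, not sites shown to be bound.

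Total counts ranged from 18366289 to 23221473 per library. Hepatocyte libraries carried the transcripts of their labelled cell type: 10 hepatocyte markers outside the 43 genes, such as *Cps1*, *Apoa1* and *Hnf4a*, summed to 9653 to 12548 CPM in the 9 hepatocyte libraries and to at most 44.8 CPM in adipocytes and 0.429 CPM in macrophages. In myocytes the sum was 0.352 to 1.50 CPM in controls, 0.711 to 7.14 CPM under βOHB and 10.2 to 166 CPM under butyrate, and this enters the comparison between cell types below. Endothelial markers in the hepatocyte libraries summed to 82.2 to 96.7 CPM in controls and 28.1 to 33.4 CPM under butyrate, with all 5 tested markers of the 6 lower, and no marker of that list was at 0 throughout. As background for this and the following marker lists, 32.4% of all tested genes were lower and 31.0% higher in the same comparison. Macrophage markers summed to 94.9 to 119 CPM in controls and 102 to 121 CPM under butyrate, with 2 of the 7 tested lower (*Cd5l*, log2 -1.41, and *Marco*, -0.99). Stellate cell markers summed to 36.2 to 42.4 and 31.8 to 36.1 CPM, with 4 of the 6 tested lower, led by *Pdgfrb* (-3.15), and *Reln* higher (0.54). Bile duct markers summed to 234 to 265 and 274 to 358 CPM (1 of 3 tested higher), adipocyte markers to 6.80 to 9.22 and 20.8 to 24.4 CPM (2 of 5 higher), and muscle markers to 23.5 to 24.7 and 41.5 to 45.9 CPM (1 of 5 higher). Of the hepatocyte markers, *Hnf4a*, encoding HNF4α, fell from 645 to 309 CPM (log2 -1.06 ± 0.23), *G6pc* and *Asgr1* were also lower, and *Tat* was higher. Whether the change of endothelial and other marker transcripts has a part in the results below was not tested, and in such bulk samples fewer cells of a type and less RNA per cell cannot be told apart.

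In control hepatocytes the 43 genes took 10.4 to 11.1% of all counts. Per kilobase of exon, *Alb*, encoding serum albumin, led with 11966 ± 440 CPM per kb (mean ± SD, n = 3), followed by *Hpx* for the haem carrier hemopexin at 9811 ± 499 and *Trf* for transferrin at 5782 ± 472. *Hp*, encoding haptoglobin (4921 ± 182 CPM per kb), and *Ahsg*, encoding fetuin-A (4855 ± 135), did not differ beyond their spread. The fibrinogen chains, further down the order, were at 1546 ± 16.8 (*Fgb*), 1317 ± 11.3 (*Fga*) and 927 ± 38.9 CPM per kb (*Fgg*). *Apoh*, *F2*, *C4b*, *Vtn* and *F12* formed a run from 197 to 169 CPM per kb in which no neighbour differed from the next by more than the larger SD. Vitamin K-dependent factors other than prothrombin were low, at 39.4 (*F10*), 23.7 (*F9*) and 13.0 CPM per kb (*F7*), and the terminal complement genes *C8a* and *C6* were lowest, at 4.86 ± 0.318 and 4.48 ± 0.451 CPM per kb, a difference within their spread.

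Under butyrate the share of counts was 11.5 to 12.1% (11.8 ± 0.281%, against 10.6 ± 0.370% in controls and 10.9 ± 0.663% under βOHB). The parts moved apart. Carriers took 7.93 ± 0.162% of counts against 7.04 ± 0.281% in controls, coagulation genes 1.57 ± 0.0696% against 1.30 ± 0.0125% and complement genes 0.991 ± 0.0392% against 0.742 ± 0.0744%, and in each of these roles the 3 butyrate libraries lay above the 3 controls. Inhibitors took 0.433 ± 0.0038% against 0.508 ± 0.0090%, and acute phase genes 0.867 ± 0.0430% against 1.03 ± 0.0278%, with the butyrate libraries below the controls. A few very abundant genes set these sums: *Alb* alone took 3.09 ± 0.0995% of counts under butyrate and 2.40 ± 0.0747% in controls. An exact permutation test of 3 against 3 libraries cannot go below p = 0.1, so none is given for the shares.

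**Figure D1:**
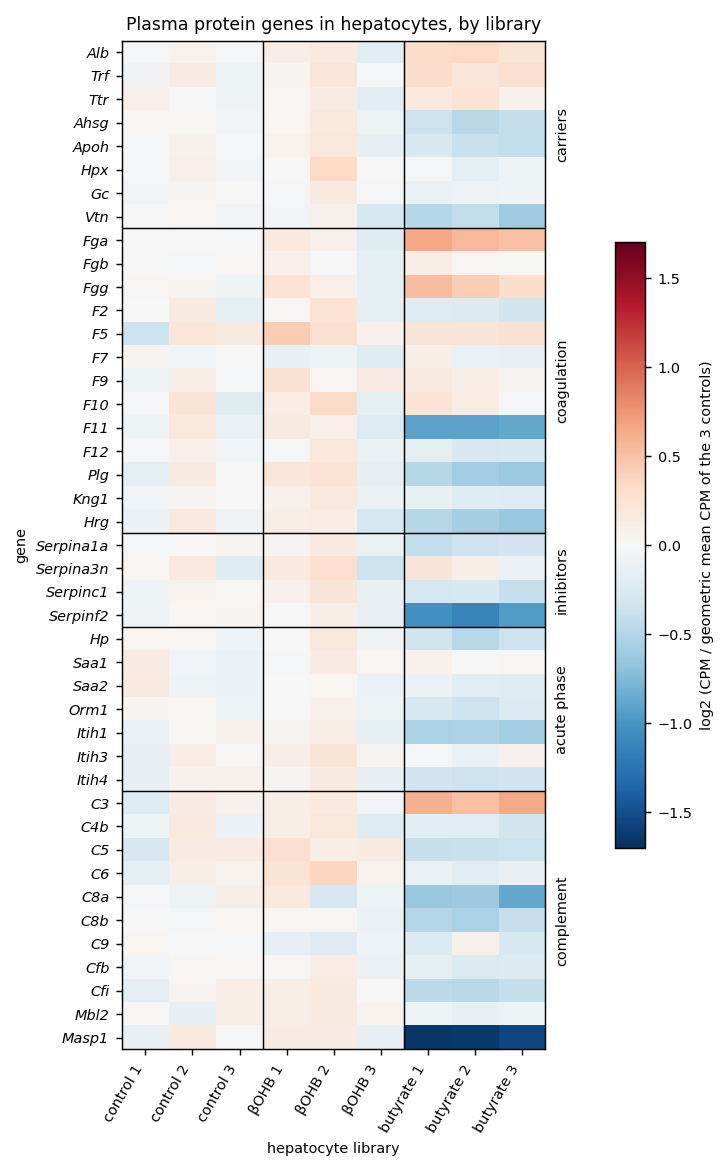
Log2 ratio of CPM to the geometric mean of the 3 control libraries for 43 plasma protein genes (rows, by role) in the 9 hepatocyte libraries (columns), red above and blue below the controls. The 3 butyrate columns are deep blue at *Masp1*, *Serpinf2* and *F11* and red at *Fga*, *Fgg* and *C3*, whereas the βOHB columns stay pale.

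Butyrate lowered 11 of the 43 genes in hepatocytes and raised none, with edgeR's quasi-likelihood test on all 36 libraries at a false discovery rate (FDR, Benjamini-Hochberg over all tested genes) below 0.05. Of all tested genes 32.4% were called lower and 31.0% higher in that comparison, so the share of members called lower (25.6%) was not above that background. An unadjusted p below 0.05 was reached by 12 members and by 10119 of the 15340 tested genes, and DESeq2 called 5 of the 11 (*Masp1*, *Serpinf2*, *F11*, *Hrg* and *C8a*). Fitting the 9 hepatocyte libraries alone gave 21 members lower and 6 higher (background 30.8% and 31.7%), and the 27 libraries without myocytes gave 23 lower and 4 higher (33.7% and 31.5%). All 11 members of the first fit were among the lower ones of both. The fold changes barely moved between fits, but their errors did: the median standard error of the members was 0.22 on the log2 scale with 36 libraries, 0.09 without myocytes and 0.08 in hepatocytes alone, against 0.11, 0.10 and 0.10 over all tested genes. The members' median log2 fold change was -0.21 with 36 libraries and -0.17 with hepatocytes alone.

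**Figure D2:**
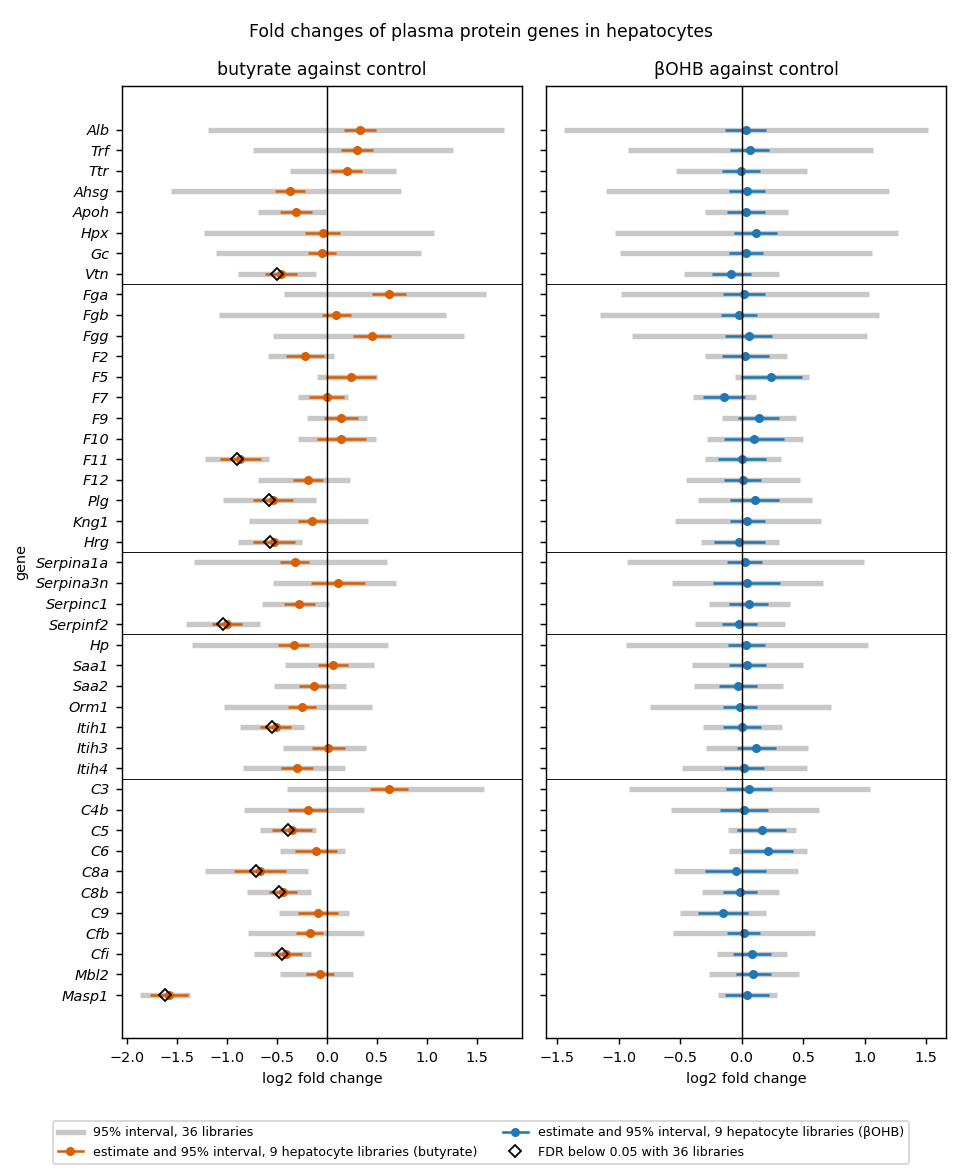
Log2 fold change of each gene under butyrate (left) and βOHB (right) against hepatocyte controls, with 95% intervals from the model of 36 libraries (grey) and of 9 hepatocyte libraries (coloured, with the estimate as a point). Diamonds mark the 11 genes at an FDR below 0.05 with 36 libraries, all at negative values under butyrate, and none is drawn under βOHB.

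*Masp1*, which encodes a protease of the lectin pathway of complement (chromosome 16 from 23449417 to 23520815, minus strand), had the largest fall. Its levels were 95.01, 116 and 101 CPM in controls, 113.9, 114.5 and 94.23 CPM under βOHB and 33.01, 33.25 and 35.25 CPM under butyrate. The butyrate libraries lay far below the other 6, which overlapped each other. The change was 3.08-fold (log2 -1.62 ± 0.12 SE, FDR 8.1e-13). The opposite-strand gene *Rtp4* overlaps *Masp1* in the annotation, shares 0 bases of exon with it and fell as well, by 2.66 on the log2 scale (FDR 4.3e-08).

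*Serpinf2* (chromosome 11 from 75431732 to 75439591, minus strand), encoding the plasmin inhibitor α2-antiplasmin, was at 648.5, 683.4 and 693.9 CPM in controls, 671.5, 721.3 and 615.7 CPM under βOHB and 331.2, 307.5 and 347.1 CPM under butyrate. It was the only one of the 4 inhibitors called with 36 libraries, 2.06-fold lower (log2 -1.04 ± 0.18, FDR 8.8e-06). *Serpina1a* (α1-antitrypsin) and *Serpinc1* (antithrombin) also had all butyrate libraries below the controls and passed in hepatocytes alone (log2 -0.33, FDR 0.00055 and -0.28, FDR 0.0042). Of the *Serpinc1* exon bases, 34.4% are shared with *Zbtb37* on the opposite strand. The sum over *Serpina1a* to *Serpina1e*, near-identical copies between which reads may be split, was 13938 ± 679 CPM in controls and 10443 ± 472 CPM under butyrate (log2 -0.42, FDR 0.54 with 36 libraries). *Serpina3n*, a protease inhibitor raised in inflammation, was at 1210 to 1568 CPM in controls and 1306 to 1616 CPM under butyrate.

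Among coagulation genes, *F11* (factor XI of the intrinsic pathway, chromosome 8 from 45241174 to 45262031, minus strand) was at 67.3, 79.8 and 65.3 CPM in controls, 78.3, 74.8 and 60.6 CPM under βOHB and 37.4, 37.6 and 38.4 CPM under butyrate. This was 1.87-fold lower (log2 -0.90 ± 0.15, FDR 5.0e-05). *Plg* (log2 -0.58 ± 0.22, FDR 0.030) and *Hrg*, encoding the heparin- and plasminogen-binding histidine-rich glycoprotein (log2 -0.57 ± 0.15, FDR 0.0031), fell too. *Plg* was at 486.1, 599.6 and 542.5 CPM in controls and 385.6, 357.4 and 347.6 CPM under butyrate. Each of these 3 genes had every butyrate library below every control. The call of *Plg* was lost without control replicate 2 (FDR 0.092) or 3 (0.056) and without butyrate replicate 2 (0.072) or 3 (0.080), and also with library totals alone (0.053) and with DESeq2 (0.504). *F2* and *F12*, which begins the contact pathway, were not called with 36 libraries but passed as lower in hepatocytes alone (log2 -0.22, FDR 0.039 and -0.19, FDR 0.028). The vitamin K-dependent genes *F7* (log2 -0.0026 ± 0.08 in hepatocytes alone), *F9* (0.14 ± 0.08) and *F10* (0.14 ± 0.12), as well as *F5* (0.24 ± 0.12), whose product is the cofactor of factor Xa, passed neither with 36 libraries nor in hepatocytes alone, though *F5* was called higher with 36 libraries and no filter on low counts (log2 0.22, FDR 0.027). *Kng1*, encoding kininogen, was at 1086, 1150 and 1120 CPM in controls and 1026, 968.5 and 958.8 CPM under butyrate, with no overlap. It was not called in these fits (FDR 0.61 and 0.073) and was called lower without myocytes (log2 -0.18, FDR 0.027).

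The 3 fibrinogen genes lie together on chromosome 3, with *Fgg* from 83007724 to 83015049, *Fga* from 83026076 to 83033627 and *Fgb*, on the minus strand, from 83040141 to 83049863. *Fga* was at 3992, 3977 and 3927 CPM in controls, 4459, 4220 and 3444 CPM under βOHB and 6282, 5841 and 5655 CPM under butyrate. *Fgg* was at 1964, 2006 and 1849 CPM in controls and 2793, 2588 and 2380 CPM under butyrate. Both lay above every control under butyrate. In hepatocytes alone the differences passed the test (*Fga* log2 0.62 ± 0.08, FDR 5.5e-06, *Fgg* 0.45 ± 0.09, FDR 0.00035), whereas with 36 libraries they did not (FDR 0.32 and 0.45). *Fgb*, at 5904, 5822 and 5948 CPM in controls and 6350, 6011 and 5976 CPM under butyrate, changed by log2 0.09 ± 0.07 and passed in neither of these fits (FDR 0.26 and 0.96). Per kb, the ratio of *Fga* to *Fgb* within a library was 0.852 ± 0.0149 in controls, 0.877 ± 0.0452 under βOHB and 1.23 ± 0.0274 under butyrate. The butyrate libraries (1.198 to 1.252) lay above all others. Whether the ratio passes 1 depends on the exon lengths used (3010 bp for *Fga*, 3810 bp for *Fgb*). In CPM *Fga* stayed below *Fgb* in each butyrate library. The ratio of *Fgg* to *Fgb* was 0.599 ± 0.0311, 0.632 ± 0.0385 and 0.770 ± 0.0398. Such ratios do not depend on the scaling between libraries. They were formed after the fold changes were known.

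**Figure D3:**
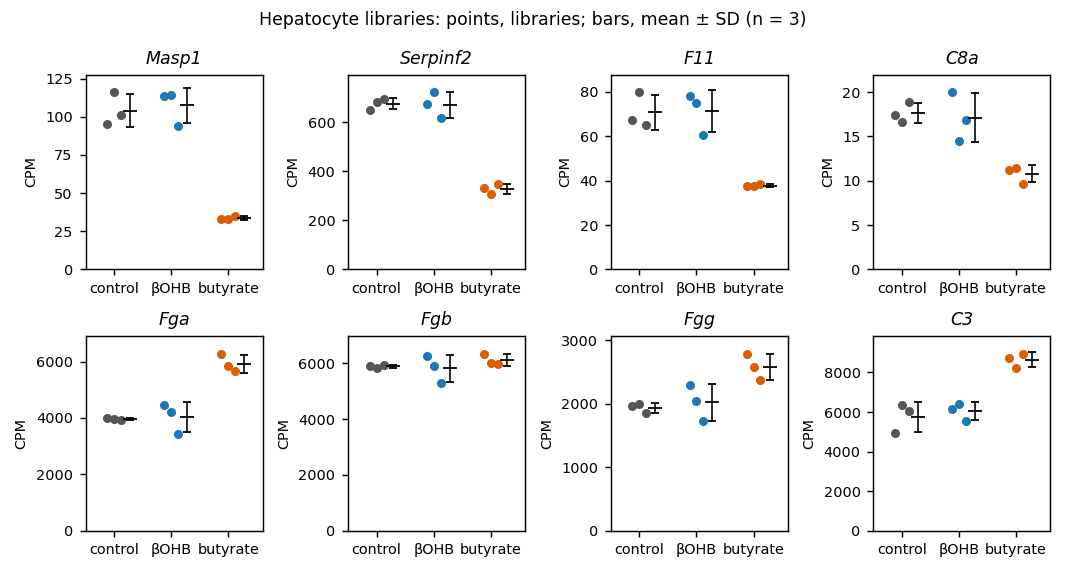
CPM of 8 genes in each hepatocyte library (points) with the mean and SD of the 3 libraries of a group, linear axes from 0. *Masp1*, *Serpinf2*, *F11* and *C8a* are lower in all butyrate libraries, *Fga*, *Fgg* and *C3* higher, and *Fgb* differs little, from 5904, 5822 and 5948 CPM in controls to 6350, 6011 and 5976 CPM.

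In the complement group 5 of 11 genes were called lower with 36 libraries, against 32.4% of all tested genes: *Masp1*, *C8a*, *C8b*, *Cfi* and *C5*. *C8a* and *C8b*, which encode the α and β chains of C8 and lie 11130 bp apart on chromosome 4, fell by 0.71 ± 0.24 and 0.48 ± 0.15 on the log2 scale (FDR 0.018 and 0.0098). *C8a* was at 17.4, 16.7 and 18.9 CPM in controls and 11.2, 11.5 and 9.67 CPM under butyrate. *C8b* was at 88.11, 86.39 and 89.95 CPM in controls and 62.25, 60.16 and 67.19 CPM under butyrate. *Cfi*, the protease that inactivates C3b and C4b (log2 -0.45 ± 0.14, FDR 0.0068), and *C5* (log2 -0.39 ± 0.14, FDR 0.014) fell less. The call of *C8a* was lost without control replicate 3 (FDR 0.062) or butyrate replicate 3 (0.067), and that of *C5* without control replicate 2 (0.074) or 3 (0.074). *C3*, the central component (chromosome 17 from 57203970 to 57228136, minus strand), was not among them. It was at 4915, 6344 and 6049 CPM in controls, 6162, 6418 and 5528 CPM under βOHB and 8747, 8206 and 8953 CPM under butyrate, above all of the other 6 libraries. With hepatocytes alone this was a rise of 1.54-fold (log2 0.62 ± 0.09, FDR 1.3e-05), and with 36 libraries it did not pass (log2 0.58 ± 0.48, FDR 0.31). Per kb, *C3* exceeded *C5* 55.3 ± 2.14-fold in controls and 108 ± 4.80-fold under butyrate. *Cfb*, encoding the factor B that joins C3b in the alternative pathway convertase, was called lower in hepatocytes alone (log2 -0.17, FDR 0.028), not with 36 or 27 libraries, and *C4b*, *C6*, *C9* and *Mbl2* passed neither with 36 libraries nor in hepatocytes alone. Without myocytes *C4b* was called lower (log2 -0.23, FDR 0.034).

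Of the carriers, *Vtn*, encoding the adhesion and complement-regulatory protein vitronectin, was the only one called with 36 libraries. It was at 351, 358 and 339 CPM in controls and 250, 260 and 230 CPM under butyrate (log2 -0.50 ± 0.19, FDR 0.023), a call that was lost without control replicate 2 (0.054), butyrate replicate 1 (0.0503) or butyrate replicate 3 (0.079). *Alb* was at 27338, 29210 and 27524 CPM in controls and 34930, 35190 and 32796 CPM under butyrate. *Trf* was at 18369, 21002 and 18214 CPM in controls and 23662, 22020 and 23235 CPM under butyrate. Both were above every control, and both passed in hepatocytes alone (*Alb* log2 0.33 ± 0.08, FDR 0.0015, *Trf* 0.30 ± 0.08, FDR 0.0026) but not with 36 libraries (FDR 0.76 and 0.68). *Ttr*, encoding the thyroxine carrier transthyretin, passed in hepatocytes alone at log2 0.20 (FDR 0.029) with libraries that overlapped the controls. *Ahsg* (log2 -0.37, FDR 0.00019) and *Apoh*, encoding β2-glycoprotein I (log2 -0.31, FDR 0.0016), were lower there, and *Hpx* and *Gc*, encoding the vitamin D-binding protein, did not pass.

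Of the 7 acute phase and inter-alpha-inhibitor genes 1 was called with 36 libraries and 4 in hepatocytes alone, all lower (background 32.4% and 30.8% lower). Without myocytes 5 were called lower (background 33.7%). *Itih1*, encoding a heavy chain of inter-alpha-inhibitor, fell with 36 libraries (log2 -0.55 ± 0.15, FDR 0.0042), from 105, 116 and 119 CPM in controls to 78.1, 78.6 and 75.3 CPM. *Hp* (log2 -0.34, FDR 0.00060), *Orm1*, encoding α1-acid glycoprotein (log2 -0.25, FDR 0.0033), and *Itih4* (log2 -0.30, FDR 0.0027) passed as lower in hepatocytes alone. *Saa1* and *Saa2*, encoding serum amyloid A and close copies of each other, were at 523 ± 49.7 CPM together in controls and 507 ± 17.3 CPM under butyrate (log2 -0.04, FDR 0.91). Taken singly, *Saa2* was called lower without myocytes (log2 -0.17, FDR 0.044). *Itih3* lies 5419 bp from *Itih1* on chromosome 14, and its log2 fold change was 0.01 (SE 0.08) in hepatocytes alone against -0.51 for *Itih1*. Of these neighbours, *C8a* and *C8b* were both called lower, while of *Itih1* and *Itih3*, and of *Fga* and *Fgb*, the first alone was called in hepatocytes alone.

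Counted by libraries, 25 of the 43 genes had all 3 butyrate libraries below all 3 controls (35.5% of all tested genes) and 7 had all above (33.0%). The 7 were *Alb*, *Trf*, *Fga*, *Fgb*, *Fgg*, *F5* and *C3*. By role the lower ones were 4 of 8 carriers, 6 of 13 coagulation genes, 3 of 4 inhibitors, 5 of 7 acute phase genes and 7 of 11 complement genes.

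No member was called under βOHB in hepatocytes, with 36 libraries or with hepatocytes alone, while 1 of the 15340 genes was called higher (0.00652%) and 0 lower. These fits share the control libraries with the butyrate comparison. With edgeR on 36 libraries 0 members had an unadjusted p below 0.05, with hepatocytes alone there was 1, *C6* (log2 0.21 ± 0.10), and limma-voom and DESeq2 called 0 of the members. Fold changes ran from log2 -0.15 (*C9*) to 0.24 (*F5*) in hepatocytes alone, and all 43 of the 95% intervals there lay within -0.5 and 0.5, the widest bounds being -0.36 and 0.49. With 36 libraries 20 of the 43 intervals lay within those limits, and the widest bounds were -1.44 and 1.52. By library, 0 genes had every βOHB library above every control (3.12% of all tested genes) and 2, *C9* and *F7*, had every one below (3.59%). *C9* was at 27.5, 26.8 and 26.2 CPM in controls and 24.0, 23.1 and 25.4 CPM under βOHB, and *F7* at 24.9, 23.3 and 24.2 CPM and 22.2, 22.6 and 20.9 CPM.

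Set against each other at the same dose and time, butyrate gave lower levels than βOHB for 13 of the 43 genes and higher levels for 0 (background 33.0% and 30.5%), in a comparison of 1 pair of compounds with adjustment over all tested genes. With hepatocytes alone these were 24 and 6 (30.9% and 31.4%), and without myocytes 24 and 4 (34.1% and 30.9%). By library, 26 members had every butyrate library below every βOHB library (35.0% of all genes) and 4 above (32.0%). *Masp1* differed most, by log2 -1.67 with a 95% interval from -1.92 to -1.42, then *Serpinf2* by -1.03 (-1.40 to -0.66) and *F11* by -0.91 (-1.23 to -0.60). *Apoh* (log2 -0.39, FDR 0.039), *Serpinc1* (-0.38, FDR 0.043) and *C6* (-0.36, FDR 0.042) were called between the compounds though not between butyrate and control, and *Vtn* the reverse (-0.42, FDR 0.053). These 3 were not called with RLE size factors (FDR 0.052, 0.057 and 0.056), library totals alone (0.10, 0.12 and 0.12), factors computed without the members (0.064, 0.071 and 0.069) or the filterByExpr filter (0.059, 0.065 and 0.061), nor were *Apoh* and *Serpinc1* with DESeq2 (0.42 and 0.68). DESeq2 called 7 of the 13 and also lost *Itih1* (0.63), *C8b* (0.65), *Cfi* (0.29) and *Plg* (0.42). The calls of *Apoh*, *Serpinc1*, *C6* and *C8a* were also lost without single libraries. Leaving out βOHB replicate 1 gave FDR 0.080, 0.086, 0.088 and 0.12 (in that order), and leaving out butyrate replicate 3 gave 0.11, 0.12, 0.084 and 0.087. Without butyrate replicate 1 or 2 they were lost as well (FDR 0.0501 to 0.11). Without βOHB replicate 2 *Apoh*, *Serpinc1* and *C6* were lost (0.14, 0.16 and 0.17), and without βOHB replicate 3 *C8a* (0.054). *C6* was at 14.1, 17.2 and 16.5 CPM in controls, with 18.6, 20.4 and 16.5 CPM under βOHB and 14.7, 14.0 and 14.5 CPM under butyrate. The compounds were not shown to differ for *F9* (log2 difference in hepatocytes alone with a 95% interval from -0.17 to 0.17), *Saa1* (-0.13 to 0.17), *Fgb* (-0.03 to 0.26) and *F5* (-0.25 to 0.25). With 36 libraries, as for the differences above, these intervals were -0.34 to 0.26, -0.47 to 0.42, -1.06 to 1.21 and -0.34 to 0.26. The 2 comparisons with butyrate share its libraries, so their values are not independent.

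Related genes outside the 43 give the setting in hepatocytes. Of 20 other genes of coagulation and fibrinolysis 19 were tested, and 7 were lower and 3 higher under butyrate with 36 libraries. As background for this and the following lists, 32.4% of all tested genes were lower and 31.0% higher. Among the higher ones were *Plat* (tissue plasminogen activator, 9.61 to 166 CPM, log2 4.11 ± 0.16) and *Klkb1* (plasma prekallikrein, log2 0.58 ± 0.21). *Serpind1*, encoding heparin cofactor II (148 to 41.6 CPM, log2 -1.83 ± 0.15), *Serpina10* (-0.90) and *Pros1*, encoding protein S (-0.71), were lower. Fibrinolysis genes thus moved in both directions, with *Plat* higher and *Plg* and *Serpinf2* lower, and the ratio of *Serpinf2* to *Plg* per kb was 2.00 ± 0.160 in controls, 1.84 ± 0.146 under βOHB and 1.45 ± 0.128 under butyrate.

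Of 24 other complement genes 23 were tested, of which 11 were lower and 0 higher (32.4% and 31.0% of all tested genes). The largest falls among them were in *C5ar1* and *C3ar1*, receptors at under 1 CPM in these libraries, and in *Cd55*, a brake on the convertases (3.30 to 1.23 CPM, log2 -1.41 ± 0.28). Of 23 other acute phase and carrier genes 21 were tested, with 5 lower, led by *Igfals* (-1.89), *Saa4* (-1.12) and *Serpina7* (-0.98), and 3 higher, *Itih5* (2.36), *Saa3* (0.71) and *Afm* (0.40). Of 13 receptors and signalling genes of the acute phase response, 5 were higher and 5 lower. *Cebpd*, encoding C/EBPδ, fell from 37.2 to 10.8 CPM (log2 -1.79 ± 0.12), *Rela* from 226 to 82.7 CPM (-1.45 ± 0.06) and *Nfkb1* from 115 to 43.1 CPM (-1.41 ± 0.05), while *Jak1* rose from 360 to 648 CPM (0.85 ± 0.06). Of 18 genes of protein export 5 were higher, led by *Ggcx*, the γ-carboxylase of vitamin K-dependent factors (0.64 ± 0.09), and *Hspa5* (0.59 ± 0.10), and 8 lower, led by *Furin* (-1.32 ± 0.06). Under βOHB none of these lists held a called gene.

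**Figure D4:**
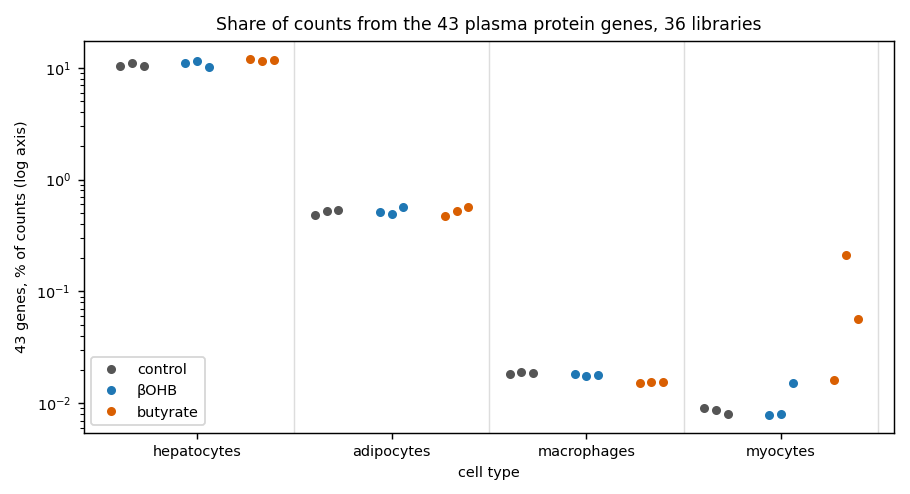
Percentage of all counts that fell on the 43 plasma protein genes, log axis, for each of 36 libraries by cell type and treatment. Hepatocytes stand above 10%, adipocytes near 0.5% and macrophages below 0.02%, while 1 βOHB library and the 3 butyrate libraries of myocytes rise to 0.0151, 0.0160, 0.212 and 0.0571% above the 0.0080 to 0.0091% of the myocyte controls.

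The genes were chosen as liver proteins, and only 17 of the 43 reached 1 CPM in another control group, so that their higher level in control hepatocytes than in the mean of the other cell types (43 of 43, with 41.1% of all tested genes higher) followed from the choice. Control adipocytes held 14 of the genes at 1 CPM or more, macrophages 8 and myocytes 4 (*Trf*, *F2*, *F5* and *Masp1*). *C4b* was at 1115, 1133 and 1142 CPM in control adipocytes and 968.2, 1137 and 951.6 CPM in control hepatocytes, 2 groups that overlap. By contrast, *Serpina3n*, *C3* and *Hp* in adipocytes were at 589, 1282 and 1752 CPM, the hepatocyte levels being 2.38, 4.50 and 4.51 times those. *Masp1* was at 53.8 CPM in control myocytes, and the hepatocyte level was 1.93 times that.

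In myocytes 40 of the 43 genes were called higher and 1, *Masp1*, lower under butyrate (background 33.1% and 33.4%). Transcripts of hepatocytes were present in 4 of the 9 myocyte libraries. *Alb* was at 0, 0.044 and 0.044 CPM in myocyte controls, 0, 0 and 18.4 CPM under βOHB and 23.5, 432 and 95.3 CPM under butyrate. In the 3 butyrate libraries and the βOHB library with *Alb*, the median member stood at 0.101, 1.62, 0.425 and 0.0650% of its level in hepatocytes of the same treatment, and the 10 hepatocyte markers outside the 43 genes stood at medians of 0.0771, 1.52, 0.387 and 0.0574%. In the other 5 libraries the medians were at most 0.000299% for the members and 0 for the markers. The part of these transcripts in the calls of myocytes was not tested. Under βOHB 1 member, *Alb*, was called in myocytes (FDR 0.040, background 0.346% higher and 2.56% lower), and 0 were called without that library or without any 1 of the 3 controls, against 2 without either other βOHB library. *F2*, at 11.9 to 15.8 CPM in myocyte controls and 8.50 to 20.9 CPM under butyrate, and *F5* were the genes not called.

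*Masp1* was lower under butyrate in each of the 4 cell types. In myocytes it was at 54.2, 52.1 and 55.1 CPM in controls and 25.0, 24.7 and 42.0 CPM under butyrate (log2 -0.82 ± 0.12, FDR 8.3e-07). In macrophages it went from 2.501, 2.772 and 2.595 CPM to 1.48, 1.13 and 1.23 CPM (log2 -1.04 ± 0.26, FDR 0.00098), and in adipocytes from 4.07, 4.31 and 3.97 CPM to 2.86, 2.76 and 2.42 CPM (log2 -0.62 ± 0.21, FDR 0.012). Butyrate and control libraries did not overlap in any cell type, and limma-voom did not call the adipocyte difference (adjusted p = 0.091). The log2 change in hepatocytes minus the mean of the other 3 cell types was -0.80 ± 0.17 (FDR 0.00032, with 24.2% of all genes lower and 22.1% higher), and minus the mean of adipocytes and macrophages -0.79 ± 0.21 (FDR 0.0028, with 23.1% and 21.2%). Under βOHB *Masp1* was not called in any cell type (log2 -0.35 to 0.07).

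**Figure D5:**
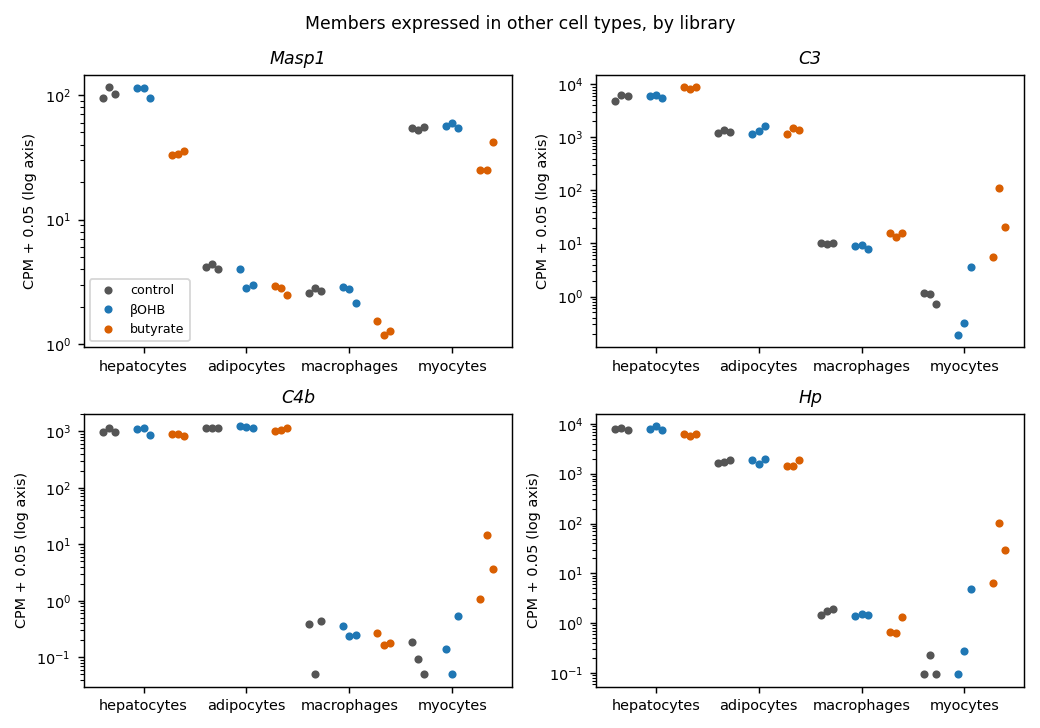
CPM plus 0.05 on a log axis for *Masp1*, *C3*, *C4b* and *Hp* in each library of the 12 groups. *Masp1* is lower under butyrate than in controls in every cell type, *C4b* in adipocytes reaches its hepatocyte level, and *C3*, *C4b* and *Hp* are spread widely over the myocyte libraries of butyrate.

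In adipocytes *Masp1* was the only member called under butyrate with 36 libraries (background 30.3% lower, 30.7% higher), against 3 lower and 1 higher with adipocyte libraries alone (30.3% and 31.2%), and *C3* (log2 0.07 ± 0.48), *Hp* (-0.17 ± 0.48) and *C4b* (-0.08 ± 0.29) were not. Under βOHB 0 members were called in adipocytes (0.00652% of all genes lower) or macrophages (0.0%). In macrophages 6 were lower and 5 higher with macrophage libraries alone (34.2% and 35.0%), and 3 were called with 36 libraries (33.2% lower, 31.9% higher): *Masp1*, *F10* from 2.08, 1.86 and 2.03 CPM to 0.435, 0.429 and 0.592 CPM (log2 -2.03 ± 0.55, FDR 0.0021), and *Serpinc1* from 0, 0.454 and 0 CPM to 0.478, 0.546 and 1.01 CPM (FDR 0.029), levels of a few reads. The call of *Serpinc1* was lost without control replicate 1 (FDR 0.12), control replicate 3 (0.12) or butyrate replicate 3 (0.12).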

How the data were processed

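RNA-seq was measured in 36 libraries, 12 groups of 3 by cell type and treatment as the labels give them. The authors quantified reads with Salmon 1.2.1 against GENCODE M25 (GRCm38.p6), summed transcripts to genes with tximport 1.16.1 and deposited the estimated counts used here, which were rounded to whole numbers. Strandedness of the libraries is not given in the sources used here. Symbols, positions and exon lengths came from GENCODE M21 (GRCm38), which held 54094 of the 54347 genes.

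The 43 members and all gene lists were chosen with earlier results of these data known. The test was the quasi-likelihood F test of edgeR 4.0.16 (R 4.3.3, TMM scaling) on the 15340 genes that exceeded 1 CPM in 6 libraries or more, in 1 model of 36 libraries with a mean for each group, and were called at a Benjamini-Hochberg adjusted p below 0.05. CPM are TMM-scaled. The statistics were tested on simulated data. Alternatives were limma-voom (limma 3.58.1), DESeq2 1.42.0, other scalings and filters, a replicate block, leaving out libraries, and the 9 hepatocyte libraries alone. The model without myocytes, the contrast without them and the ratios between members were added after the data were seen. Of the other lists, up to 3 called genes of largest change in each direction were named, and some results are not reported here. Members described library by library include some chosen after their values were seen. Total counts (median 22177562) were similar between libraries, so that counting error was small for all but the lowest genes.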

Additional observations from a re-analysis of the deposited data

Results flagged for a closer look

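The effect of butyrate in hepatocytes was compared with the mean of its effects in the other 3 cell types. Of the 43 members 12 differed, all lower in hepatocytes (24.2% of all tested genes did so, and 22.1% were higher), and 9 of the 17 with at least 1 CPM in another control group are given here as log2 differences. They were -0.66 for *F7*, -3.57 for *Kng1*, -2.96 for *Hp*, -3.42 for *Orm1*, -3.34 for *Itih4*, -1.49 for *C3*, -2.17 for *C4b*, -2.85 for *Cfb* and -0.80 for *Masp1*. The mean includes myocytes, whose butyrate libraries held hepatocyte transcripts. Against adipocytes and macrophages only, 1 member differed, *Masp1* (-0.79, FDR 0.0028, edgeR), with 23.1% of all genes lower and 21.2% higher.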

How the results depend on the processing

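For butyrate against control in hepatocytes, 4 members were higher and 20 lower without a filter on low counts, 6 and 21 with hepatocyte libraries alone, and 4 and 23 without myocytes. DESeq2 called 5 lower, and an unadjusted p below 0.001 left 3. Against βOHB the same settings gave 3 and 22, 6 and 24, and 4 and 24, DESeq2 7 and the unadjusted p 5. The cause was not tested. Scaled to library totals without TMM factors, the members' median was -0.14 (log2) against control and -0.16 against βOHB.

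In adipocytes under butyrate limma-voom and the unadjusted p called 0 members, no filter 3 and adipocyte libraries alone 4. In macrophages DESeq2 called 5, no filter 11, macrophage libraries alone 11 and the unadjusted p 1. In myocytes under βOHB limma-voom, myocyte libraries alone and the unadjusted p called 0, DESeq2 6 and no filter 11. For the difference between hepatocytes and other cell types limma-voom called 19, the unadjusted p 4, and the contrast without myocytes 1. In the butyrate comparisons of hepatocytes, adipocytes and macrophages, limma-voom called 30.5 to 33.6% of all genes in each direction, DESeq2 29.2 to 32.8%, no filter 14.8 to 16.2% (of 32246 genes) and the unadjusted p 45.6 to 49.7% in both directions together. In myocytes under βOHB these were 0.469 to 1.83%, 0.456 to 3.58%, 0.301 to 2.47% and 2.56%, and for the difference between cell types limma-voom called 22.4 to 25.2% and the unadjusted p 31.1%.

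With 1 library left out, 8 to 11 members were lower and 0 higher under butyrate in hepatocytes (median -0.24 to -0.18), 0 were called under βOHB (median -0.03 to 0.12), and 9 to 13 were lower and 0 higher against βOHB (median -0.31 to -0.18, the ends without βOHB replicates 3 and 2). The counts were 1 in adipocytes, 2 to 3 in macrophages and 38 to 42 in myocytes under butyrate, 0 in adipocytes and macrophages and 0 to 2 in myocytes under βOHB, 7 to 12 for the difference between cell types (7 without macrophage butyrate replicate 3 or myocyte control replicate 3), and 43 for control hepatocytes.

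Replicate numbers did not pair the hepatocyte libraries, as same-numbered libraries correlated at -0.0645 to 0.013 in 9 pairs. With the replicate block 13 members were lower than in controls (*Apoh* and *Serpinc1* added) and 14 lower than under βOHB, without *C6* (FDR 0.063). No called value changed sign in any setting tried, while the uncalled median under βOHB did, as given above. Among values of single genes under settings that leave out no single library, 595 kept their side of the threshold, 50 passed it and 28 lost it.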
